A study of Arabidopsis thaliana and Oryza sativa and Cucumis sativus with 30 samples.

Results

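The 7 genes described here encode protein kinases of growing root hairs in Arabidopsis. IRE, OXI1 and RHS3 are intracellular kinases of the AGC family. MRH1, RHS6, RHS10 and RHS16 are receptor-like kinases of the plasma membrane. The members were taken by locus, and all 7 were listed in each of the 3 Arabidopsis tables, of 17628 genes in the comparison of rhd6 with wild type, 33550 in sorted hair cells and 14919 in sieved hairs. The series compared the bHLH mutant rhd6 with wild type and described root hair cells of several species in 30 libraries, 3 per group. The rhd6 and wild-type plants carried the reporter WER::GFP, which drives GFP from the promoter of WEREWOLF, and their epidermal cells were sorted by fluorescence after enzymatic digestion of pooled root tips. Hair cells were sorted in the same way from a COBL9::GFP line, in which the promoter of a gene of hair cells drives GFP, and root hairs were collected by stirring roots in liquid nitrogen and sieving. All these plants carry the variety label Columbia and were grown at 22 °C under constant light to 4 to 5 days after plating. The sources used here do not give the allele of rhd6, the number of seedlings per pool or the genotype of the sieved plants. The series design calls the 3 libraries of a group biological replicates, without saying how plants were divided among them.

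A root hair is a tube that an epidermal cell pushes out at one point and extends by growth at its tip. RHD6 is a transcription factor that starts this programme, and mutants without it form few hairs. Kinases act at several steps of the tube's growth. Receptor-like kinases read wall and peptide signals at the cell surface, and AGC kinases act inside the cell, where OXI1 is known to respond to hydrogen peroxide and to pass the signal to the mitogen-activated kinases MPK3 and MPK6. Mutants of IRE, MRH1 and OXI1 have short hairs, whereas RHS10, a member of the proline-rich extensin-like receptor kinases (PERK), is known to restrain hair growth. The RHS and MRH names come from earlier searches for genes of hair cells, so a lower level in a mutant with few hairs is not independent evidence for these genes.

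The 6 libraries of the rhd6 comparison held 10562137 to 23110648 reads in listed genes. RHD6 itself had 1.25, 0.940 and 1.995 normalized CPM (a read count scaled to library size by the authors) in the rhd6 libraries 10018, 10019 and 9519, against 74.3, 75.5 and 85.4 in the wild-type libraries 8955, 9483 and 9489. Markers of hair cells stood apart by library within both groups. The summed level of 7 hair markers (COBL9, RHD6, RSL4, EXPA7, EXPA18, ADF8 and PRP3) was 37.8, 291 and 89.1 in rhd6 libraries 10018, 10019 and 9519, against 1383, 1297 and 2638 in wild-type libraries 8955, 9483 and 9489. The summed level of 4 root cap markers (SMB, BRN1, BRN2 and FEZ) was 110, 441 and 222 in the same rhd6 libraries, against 163 to 195 in wild type, and none of the 4 was at 0. Of the non-hair, root cap, cortex and endodermis, and stele markers, 0 of 4, 0 of 4, 0 of 3 and 0 of 3 tested passed in limma and in edgeR, with 0, 1, 0 and 0 at an unadjusted p below 0.05, and DESeq2 called 1 of the stele markers.

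The purpose of setting the mutant beside its control was to find genes that depend on RHD6. In rhd6, 6 of the 7 members were lower, and OXI1 was not past the test. The 6 had 2.27% to 12.9% of their wild-type level, while OXI1 had 99.4% of it. RHS6, the member at 2.27%, reached 1 normalized CPM in wild type alone. It entered the test through the group in which it is high, so its call adds little to the count. Of all 17575 genes tested, 3.26% were lower at a limma adjusted p below 0.05, and the groups did not overlap, with rhd6 below, for 6 members and for 14.3% of all genes. The median log2 fold change was -3.53 over the members and 0.04 over all genes tested. In bulk cells, fewer cells of a type and less RNA per cell cannot be told apart. The 7 hair markers, which include the mutated gene RHD6, were lower too, 7 of 7 in limma and 6 in edgeR. They were chosen with earlier results of these data known, so their count is not an independent check.

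**Figure D1:**
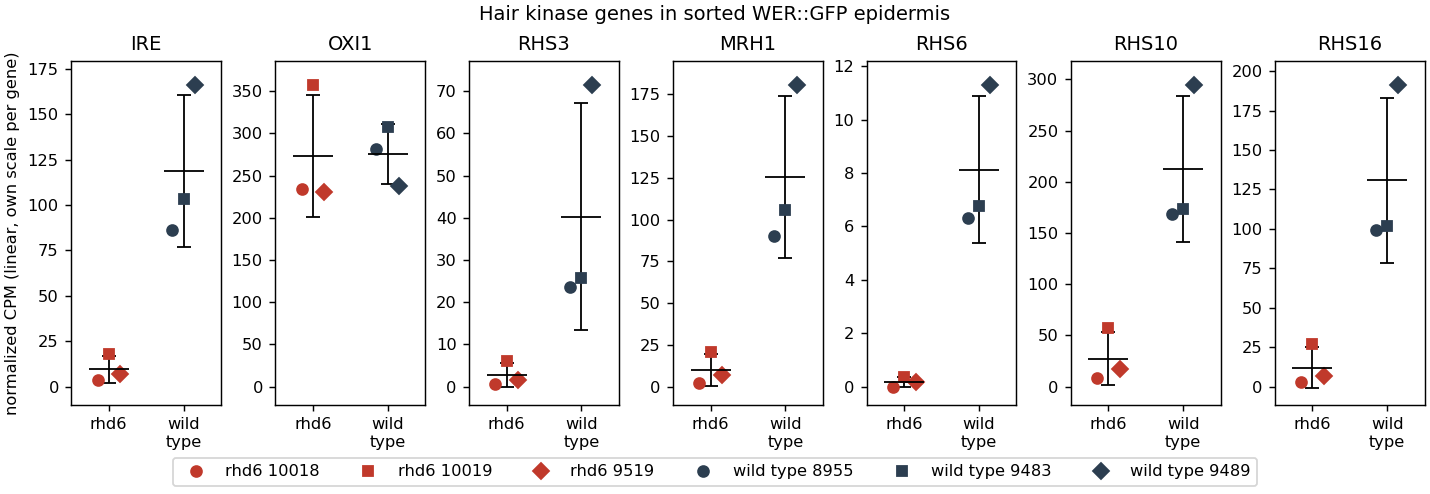
Normalized CPM of the 7 hair kinase genes on a linear axis with its own scale per gene, in 3 rhd6 libraries (red) and 3 wild-type libraries (dark); points are libraries, and the bar and whiskers are the mean and SD. The groups are separate for every gene but OXI1, whose 3 rhd6 libraries lie between 230.05 and 357.2 and whose wild-type libraries lie between 237 and 307.

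IRE (AT5G62310, chromosome 5), the AGC kinase named for its incomplete hair elongation mutant, had 3.56, 18.0 and 6.96 normalized CPM in rhd6 libraries 10018, 10019 and 9519, against 86.5, 103 and 166 in wild-type libraries 8955, 9483 and 9489. The highest rhd6 library lay far below the lowest wild-type library. Its log2 fold change was -3.70 ± 0.50 SE (95% interval -4.87 to -2.53, limma adjusted p = 0.00674, n = 3 each). In the 14 alternatives its adjusted p stayed at or below 0.0492, the highest being without wild-type library 9489.

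RHS3 (AT1G16440, chromosome 1), listed by RefSeq as RSH3, is an AGC kinase of the subgroup whose pollen members act on tube growth. It was read by 14, 97 and 36 reads in rhd6 libraries 10018, 10019 and 9519, against 247, 599 and 1525 reads in wild-type libraries 8955, 9483 and 9489. These are 0.702, 6.08 and 1.596 normalized CPM in rhd6 and 23.6, 25.8 and 71.4 in wild type. Among the 6 lowered members it had the widest spread in wild type relative to its mean, with library 9489 at 2.89 times the mean of the other 2. Its log2 fold change was -3.53 ± 0.60 SE (95% interval -4.91 to -2.14, limma adjusted p = 0.0168, n = 3 each). Leaving out any 1 library but rhd6 library 10019 ended the call, with limma adjusted p of 0.0537, 0.0663 and 0.0783 without wild-type libraries 8955, 9483 and 9489, and 0.0543 and 0.0863 without rhd6 libraries 10018 and 9519.

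OXI1 (AT3G25250, chromosome 3), the AGC kinase that answers to hydrogen peroxide, had 234, 357 and 230.05 normalized CPM in rhd6 libraries 10018, 10019 and 9519, against 282, 307 and 237 in wild-type libraries 8955, 9483 and 9489. The wild-type range lay inside the rhd6 range. OXI1 was read by 15551 reads in rhd6 and 15128 in wild type. Its log2 fold change was -0.03 with an SE of 0.24 (limma adjusted p = 0.961, n = 3 each), and the 95% interval of -0.60 to 0.54 holds neither a fall of 1 nor any value inside the intervals of the other 6 members. The value ran from -0.24 without rhd6 library 10019 to 0.08 without rhd6 library 9519, on both sides of 0, and OXI1 was not past the test in any of 14 alternatives, with adjusted p from 0.531 to 0.989.

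MRH1 (AT4G18640, chromosome 4), a receptor-like kinase with leucine-rich repeats, had 2.06, 20.8 and 6.74 normalized CPM in rhd6 libraries 10018, 10019 and 9519, against 90.0, 106 and 180 in wild-type libraries 8955, 9483 and 9489. The 2 groups did not overlap. On the scale of log2(normalized CPM + 1), MRH1 had the lowest log2 fold change of the members, -3.91 ± 0.65 SE (95% interval -5.43 to -2.40, limma adjusted p = 0.0158, n = 3 each). On that scale 42 genes past the test, MRH1 included, had a value as low or lower. By edgeR on the recovered reads, RHS6 (-5.49) and RHS3 (-3.88) fell further than MRH1 (-3.67). The interval of MRH1 overlaps those of the 5 other lowered members, and an order among the 6 falls was not tested. The call was lost without wild-type library 8955, 9483 or 9489 (limma adjusted p of 0.0597, 0.0768 and 0.0996) and without rhd6 library 9519 (0.0773).

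RHS10 (AT1G70460, chromosome 1), named PERK13 by RefSeq, had 8.23, 56.8 and 16.9 normalized CPM in rhd6 libraries 10018, 10019 and 9519, against 169, 174 and 294 in wild-type libraries 8955, 9483 and 9489. Of the 6 lowered members it kept the highest share of its wild-type mean, 12.9%, and 26.7% in library 10019. Its log2 fold change was -3.28 ± 0.61 SE (95% interval -4.70 to -1.86, limma adjusted p = 0.0254, n = 3 each). edgeR on the recovered reads gave an adjusted p of 0.0656, and over 15 alternatives it ran from 4.41e-05 to 0.144, with 8 of the 15 past the test. The call was lost without wild-type library 8955, 9483 or 9489 (limma adjusted p of 0.0902, 0.104 and 0.144) and without rhd6 library 10018 or 9519 (0.0512 and 0.113).

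RHS16 (AT4G29180, chromosome 4), a receptor-like kinase of the leucine-rich repeat subfamily I, followed RHS10 closely. It had 2.86, 26.8 and 6.61 normalized CPM in rhd6 libraries 10018, 10019 and 9519, against 99.1, 102 and 191 in wild-type libraries 8955, 9483 and 9489. No rhd6 library reached the wild-type range. The log2 fold change was -3.75 ± 0.66 SE (95% interval -5.29 to -2.20, limma adjusted p = 0.0201, n = 3 each), and edgeR gave an adjusted p of 0.0628. Its 14 alternatives gave adjusted p between 1.35e-05 and 0.119. The call was lost without wild-type library 8955, 9483 or 9489 (limma adjusted p of 0.0771, 0.0870 and 0.119) and without rhd6 library 9519 (0.0946).

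RHS6 (AT1G51880, chromosome 1), of the same subfamily, was the member with the fewest reads in the sorted epidermis. It was read 0, 6 and 4 times in rhd6 libraries 10018, 10019 and 9519, against 66, 157 and 241 times in wild-type libraries 8955, 9483 and 9489. In normalized CPM it had 0, 0.376 and 0.177 in rhd6 and 6.32, 6.77 and 11.3 in wild type, so 2.27% of the wild-type mean was left. The log2 fold change on the log2(value + 1) scale was -2.92 ± 0.26 SE (95% interval -3.52 to -2.31, limma adjusted p = 0.00137, n = 3 each), and that of edgeR on reads was -5.49, since the added 1 shrinks the change of low genes. RHS6 reached 1 normalized CPM in the 3 wild-type libraries alone, so it entered the test through the group in which it is high. With any 1 wild-type library removed it fell below the filter on low values.

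The 6 lowered members kept the same order of rhd6 libraries. Library 10018 was lowest for each of them, 9519 intermediate and 10019 highest, at 0% to 3.87%, 2.18% to 7.97% and 4.63% to 26.7% of the wild-type mean. The summed hair markers stood at 2.13%, 5.03% and 16.4% in the same libraries. Wild-type library 9489 was the highest of its group for all 6, by 1.72 to 2.89 times the mean of the other 2, and the summed hair markers were also highest there. OXI1 differed, with 86.1% of the wild-type mean in library 9489, the lowest of its group. Other markers differed between these libraries too. The summed stele markers stood at 50.05%, 111.7% and 69.7% of the wild-type mean in rhd6 libraries 10018, 10019 and 9519, the same order as the 6 members, and were highest in 9489 within wild type (147%). In library 10019 the summed root cap markers reached 253% and the summed cortex and endodermis markers 259%, the highest of the 3 rhd6 libraries for both. The root cap sum, at 63.0% in 10018 and 127% in 9519, had the order of the 6 members. Summed non-hair markers ran in the opposite order in rhd6, at 147%, 87.8% and 106% in libraries 10018, 10019 and 9519. The part of these cell types in the result was not tested.

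**Figure D2:**
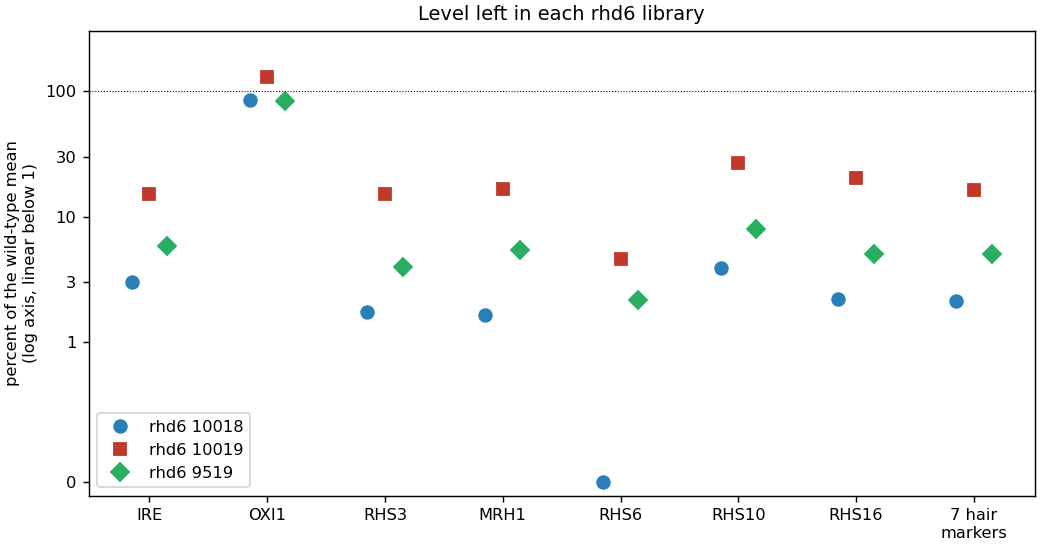
Level in each of the 3 rhd6 libraries as percent of the wild-type mean, on a log axis that is linear below 1, for the 7 members and for the sum of 7 hair markers. Library 10019 is highest and library 10018 lowest for each of the 6 lowered members, while OXI1 lies at 83.5% to 129.7%.

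The count of lowered members depended on which libraries entered. Without wild-type library 8955, 9483 or 9489, 1 of 6 members tested was lower, IRE in each case. The counts were 4, 6 and 2 of 7 without rhd6 libraries 10018, 10019 and 9519. Calls over all genes, in either direction, were 724 of 17575 with all 6 libraries. They were 264, 222 and 239 without wild-type libraries 8955, 9483 and 9489, and 568, 784 and 349 without rhd6 libraries 10018, 10019 and 9519. Between 17242 and 17380 genes were tested in these settings. Without library 10019, 3.94% of all genes tested were lower. edgeR called 4 members (2.91% of all genes lower), DESeq2 6 (5.56%), and the authors' deposited table lists 6 of them at an FDR below 0.05, where 4.96% of its genes are lower. Each of these counts includes RHS6, which passed the filter through wild type alone. In the authors' deposited table OXI1 has a log2 fold change of -0.01 and an FDR of 0.995. All 6 lowered members had a log2 fold change of -2.68 or lower in each alternative that tested them.

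RHS3, RHS6 and RHS10 lie on chromosome 1, as RHD6 does, at 2326, 791 and 256 tested genes from it. The other lowered members IRE, MRH1 and RHS16 lie on chromosomes 5, 4 and 4. Whether the position of RHS10 near the mutated locus has a part in its fall was not tested.

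Reads of related genes could pass between members and their copies, so the coding sequences of RefSeq (TAIR10.1) were compared. IRE, OXI1, RHS3 and MRH1 shared no stretch of 50 bases letter for letter with another gene. RHS6, RHS10 and RHS16 shared 1.32%, 2.21% and 1.34% of their stretches of 50 bases. The longest shared runs of RHS10 and RHS16, which a short read inside them could not assign, are given with the gene that shares each.
RHS10 with AT1G70450, 66 bases from coding base 1406: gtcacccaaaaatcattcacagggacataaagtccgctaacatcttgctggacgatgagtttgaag
RHS16 with AT4G29450, 71 bases from coding base 1696: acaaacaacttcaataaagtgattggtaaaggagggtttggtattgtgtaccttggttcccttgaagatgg

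AT1G70450, the neighbour of RHS10 and a protein kinase gene by RefSeq, was looked at after the data were seen and is 93.5% identical to it over 983 aligned coding bases. It had 0.351, 0.940 and 0.266 normalized CPM in rhd6 libraries 10018, 10019 and 9519, against 7.47, 7.29 and 10.6 in wild-type libraries 8955, 9483 and 9489. It was lower in rhd6 as RHS10 was, by -2.65 on the log2 scale with an SE of 0.25 (limma adjusted p = 0.00178, n = 3 each), at 474 wild-type reads against 12081 of RHS10. AT1G70450 reached 1 normalized CPM in wild type alone and so entered the test through the group in which it is high. AT1G51860, the closest copy of RHS6 at 80.6% identity, had 1.30, 16.2 and 2.26 normalized CPM in rhd6 and 18.0, 22.3 and 44.7 in wild type, with a limma adjusted p of 0.138 (n = 3 each). No member overlaps another annotated gene on either strand in TAIR10.1.

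Promoters of many hair genes hold a short sequence called the root hair element (RHE), which the RHS genes were in part searched by. A consensus of the element was looked for on both strands of the 1000 bases before each RefSeq gene start. It matched in 2 of 7 members, RHS3 and RHS6, and in 2.90% of 27443 protein-coding promoters, and in the nearest 250 bases in RHS3 alone, against 0.754% of promoters. Both matches lie on the strand opposite to the gene. They are shown in capitals with 20 bases on each side, read along the gene's strand, since they are the stretches that these 2 lowered members share with the element.
RHS3, TAIR10.1 chr1:5615683-5615738, plus strand: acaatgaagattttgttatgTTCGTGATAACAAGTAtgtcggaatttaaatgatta
RHS6, TAIR10.1 chr1:19274421-19274476, minus strand: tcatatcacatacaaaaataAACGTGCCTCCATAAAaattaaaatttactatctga
OXI1, TAIR10.1 chr3:9195203-9195248, plus strand: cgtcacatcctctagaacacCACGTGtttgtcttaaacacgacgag

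The third stretch is from OXI1, the member that was not lower, and its capitals mark the motif CACGTG, known as the G-box, which reads the same on both strands. The G-box was found once in the 250 bases before OXI1 and in none of the 6 other members, against 6.49% of all promoters of that length. In 1000 bases it was found in OXI1 and RHS6, against 14.8% of promoters. A match is a description of these letters only, as is the lack of one in IRE, MRH1, RHS10 and RHS16.

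Among the AGC relatives of IRE, OXI1 and RHS3, 3 of 22 tested were lower, 0 were higher and 19 did not pass, with a median log2 fold change of 0.03 beside 0.04 over all genes. The share of all genes tested that were lower was 3.26%. AGC1.7, the closest copy of RHS3 at 78.4% identity over 1248 aligned bases and known for pollen tube growth, was read 10 times in rhd6 and 342 times in wild type. It fell by 2.29 on the log2 scale with an SE of 0.44 (limma adjusted p = 0.0274, n = 3 each), and it entered the test through wild type alone. Its call was lost without rhd6 library 10018 or 9519 (adjusted p of 0.0940 and 0.109 in limma). AT5G03640, a protein kinase gene, fell by 3.25 to 1.63 ± 1.47 normalized CPM in rhd6, against 23.9 ± 13.6 in wild type (limma adjusted p = 0.00896, n = 3 each, and 0.0537 without rhd6 library 9519). UCNL, a relative of OXI1 from the AGC2 subgroup, fell by 1.84 to 3.51 ± 1.36 in rhd6, against 15.5 ± 6.64 in wild type (limma adjusted p = 0.0255, n = 3 each). The call of UCNL was lost without wild-type library 9483 or 9489 and without rhd6 library 10018 or 9519, with limma adjusted p of 0.0744 to 0.122. The 3 closest copies of IRE were not past the test, namely IREH1 (log2 fold change 0.39), IRE3 (0.41) and IRE4 (-0.50). Among the others not past it, the 4 with the highest level were the ribosomal S6 kinases S6K1 (-0.36) and S6K2 (0.04) and the PIN-phosphorylating kinases WAG1 (0.01) and WAG2 (-0.41).

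Of the PERK relatives of RHS10, 8 of 14 were tested, of which 1 was lower and 1 higher, with a median log2 fold change of 0.10. PERK12, the closest copy by length of alignment at 80.0% identity over 1393 aligned bases, had 0.251, 1.505 and 1.37 normalized CPM in rhd6 libraries 10018, 10019 and 9519, against 9.76, 8.50 and 19.7 in wild-type libraries 8955, 9483 and 9489. It fell by 2.72 on the log2 scale (limma adjusted p = 0.00780, n = 3 each) and stayed past the test in 14 of 14 alternatives, with adjusted p up to 0.0394. PERK4 was higher in rhd6, with 123 reads against 11 in wild type, and edgeR did not call it (limma adjusted p = 0.0280 and edgeR adjusted p = 0.0770, n = 3 each). PERK4 reached 1 normalized CPM in rhd6 alone, so it entered the test through the group in which it is high. Its call was also lost without wild-type library 8955, 9483 or 9489 (limma adjusted p of 0.128, 0.0818 and 0.153). Over all genes, 3.26% were lower and 0.859% higher in limma. PERK1, which responds to wounding, averaged 174 ± 36.3 normalized CPM in rhd6 and 174 ± 14.7 in wild type (SD, n = 3 each). PERK8 (-0.53), PERK9 (0.08) and PERK10 (0.31) were also not past the test.

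Of the 6 listed relatives of MRH1, 0 passed the test with limma, 0 with edgeR and 0 with DESeq2, and 1 had an unadjusted p below 0.05. AT5G45840, the closest copy of MRH1 at 77.2% identity over 2022 aligned bases, had 40.0, 85.1 and 32.0 normalized CPM in rhd6 libraries 10018, 10019 and 9519, against 31.0, 36.4 and 69.4 in wild-type libraries 8955, 9483 and 9489. The ranges overlapped, and the difference was 0.16 on the log2 scale with an SE of 0.42 (limma adjusted p = 0.879, n = 3 each). The 3 others with the highest level were AT3G56050 (0.22), AT2G40270 (-0.08) and AT5G41180 (0.19).

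Of the 40 relatives of RHS6 and RHS16 in the leucine-rich repeat subfamily I, 18 were tested, of which 4 were lower and 0 higher, with a median log2 fold change of -0.64. Over all genes tested, 3.26% were lower and the median was 0.04. With a mean of at least 5 required, 0 of 12 relatives tested passed. AT4G20450 fell by 2.15 (limma adjusted p = 0.00447, n = 3 each), to 1.13 ± 0.295 normalized CPM in rhd6, against 8.71 ± 3.09 in wild type. AT2G28960 fell by 2.51 (adjusted p = 0.0405 in limma and 0.0515 in edgeR), AT5G16900 by 1.23 (limma adjusted p = 0.0468) and AT2G29000 by 1.15 (limma adjusted p = 0.0122), the last on 3 reads in rhd6 and 75 in wild type. AT2G29000 entered the test through wild type alone. AT4G20450 kept its call in 13 of 13 alternatives. That of AT2G29000 was lost without rhd6 library 9519 (limma adjusted p of 0.0701), that of AT5G16900 without any 1 library (0.0662 to 0.170), and that of AT2G28960 without any 1 library but wild-type 8955 and rhd6 10019 (0.115 to 0.161). The relatives with the highest level were AT3G21340 (-1.23), AT1G51850 (-0.54), AT1G51800 (-0.50) and AT1G51860 (-2.43), and none of them passed the test in limma. The groups of AT1G51860 did not overlap, its limma adjusted p was 0.00209 without rhd6 library 10019, and the authors' deposited table gives it an FDR of 0.0378.

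**Figure D3:**
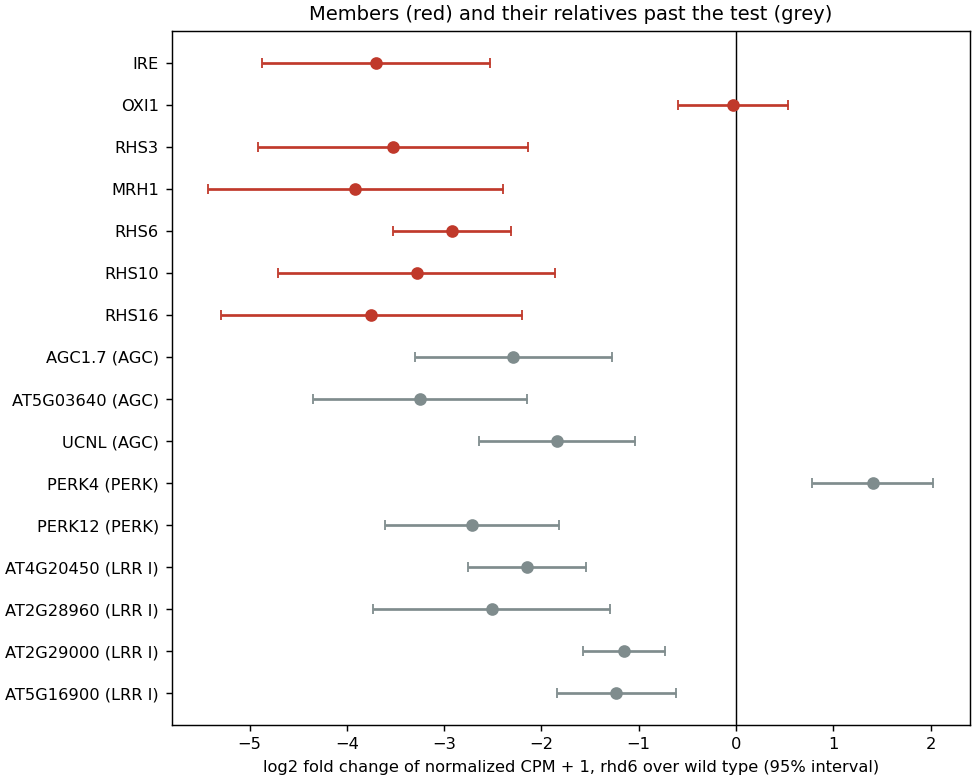
Log2 fold change of normalized CPM + 1, rhd6 over wild type, with its 95% interval from limma, for the 7 members (red) and for each relative past the test (grey, with its family). The intervals of 6 members end at -1.86 or lower, that of OXI1 spans 0, and PERK4 is the relative above 0.

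Among 11 genes that act with OXI1 or RHS10, 1 was lower and 10 did not pass, with a median log2 fold change of -0.17. Of all genes tested, 3.26% were lower, with a median of 0.04. The lowered one was RBOHC, the oxidase that makes reactive oxygen at the hair tip and is known as RHD2. It had 109, 119 and 193 normalized CPM in rhd6 libraries 10018, 10019 and 9519, against 323, 350.02 and 499 in wild-type libraries 8955, 9483 and 9489. It fell by 1.49 on the log2 scale with an SE of 0.29 (limma adjusted p = 0.0294, n = 3 each). The groups did not overlap, and the call was lost without any 1 library but rhd6 9519, with limma adjusted p of 0.0523 without rhd6 library 10019 to 0.144 without wild-type library 9489. Upstream of OXI1, the kinase genes PDK1 and PDK2 had log2 fold changes of -0.17 and -0.31. Downstream, MPK3 was at -0.09 and MPK6 at 0.12, and the PTI1 kinases PTI1-1, PTI1-2, PTI1-3 and PTI1-4 were at -0.26, 0.39, -0.48 and -0.11. RNS2, a ribonuclease that is known to bind RHS10, was at 0.18, and ANP1, a kinase activated by hydrogen peroxide, at -0.75.

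The genes whose levels ran most like those of the members over the 6 libraries were ranked by Pearson r of log2(normalized CPM + 1), a description in which most of the likeness is the step between the genotypes. RHS10 and RHS16 were each other's nearest gene (r = 0.9997), and both had PRP3, a proline-rich wall protein of hairs, and the arabinogalactan protein gene AGP3 next (r = 0.9995 to 0.9996). MRH1 ran closest to the hair wall protein gene LRX1 (r = 0.9995), then to UGT71B1 and CDPK2. IRE was nearest to AT1G73860, TPR14 and the extensin gene EXT10 (r = 0.9992 or more), and RHS3 to the cyclic nucleotide gated channel gene CNGC9, AT5G17390 and AT5G24880 (r = 0.9986 or more). RHS6 was nearest to AT5G18910, a protein kinase gene, AT1G01453 and the exocyst gene EXO70C1 (r = 0.9986 or more). The nearest genes of OXI1 were AT3G03150, the ethylene response factor gene EBP and the heat shock factor gene HSF3 (r = 0.972, 0.965 and 0.960), none of them past the test. Over the same libraries r was 0.940 to 0.9997 in the 15 pairs of lowered members and 0.0652 to 0.342 between OXI1 and each of them.

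The remaining Arabidopsis tables give levels per length (FPKM, fragments scaled to transcript length and library size), so genes can be compared within a table. They cover sorted hair cells of wild type and sieved hairs of plants whose genotype is not given. Depth is unknown for both. The 3 libraries of sorted COBL9::GFP cells are called A, B and C here, in the order of the deposited columns. In these cells OXI1 had the highest mean, 168 ± 23.8 FPKM (SD, n = 3), followed by RHS10 at 110 ± 51.4, MRH1 at 64.7 ± 30.6, RHS16 at 59.2 ± 32.5, IRE at 45.5 ± 22.0, RHS3 at 36.8 ± 22.9 and RHS6 at 5.01 ± 2.86. The ranges of all neighbours in this order overlapped except those of RHS3 and RHS6. Within each library RHS10, MRH1, RHS16, IRE, RHS3 and RHS6 followed one another in 3 of 3 libraries, and OXI1 stood above RHS10 in 2 of 3. By their mean the members stood between the 67.3 and 97.5 percentile of the 33550 listed genes, and RHS6 was the lowest. Genes at 0 in all libraries are listed too, tied at the 13.6 percentile, which raises the places of all others. Among the 14919 genes also listed for sieved hairs, RHS6 stood at the 34.6 percentile in sorted cells.

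**Figure D4:**
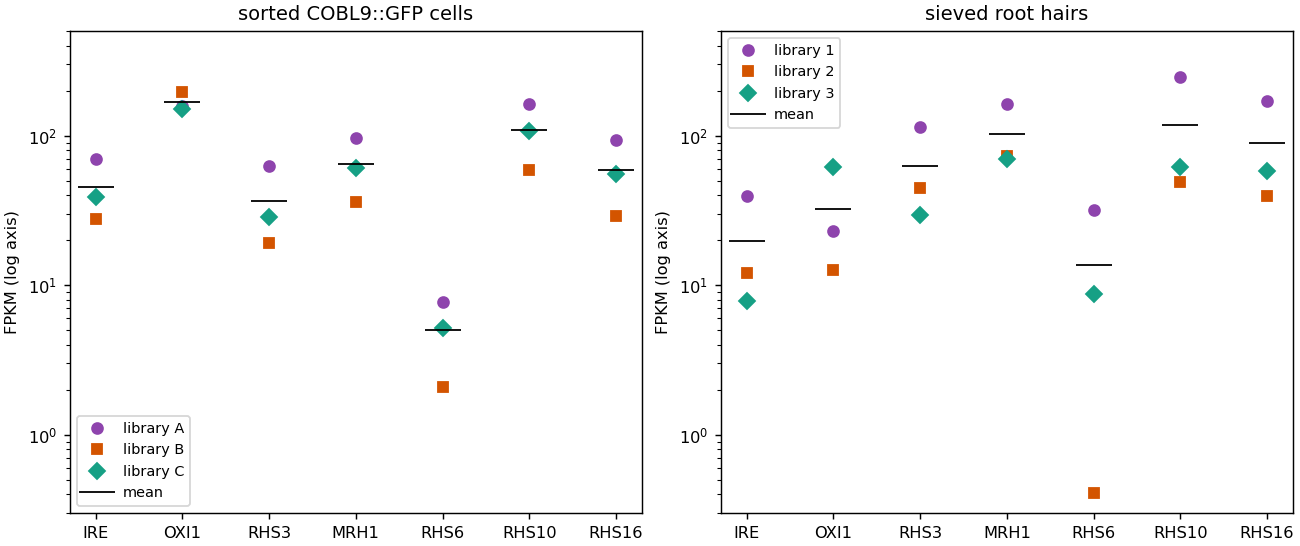
FPKM on a log axis of the 7 members in 3 libraries of sorted COBL9::GFP cells (left) and 3 libraries of sieved root hairs (right); points are libraries and black lines are means. OXI1 has the highest mean in sorted cells (168) and the fifth in sieved hairs (32.6), and library 1 of the sieved hairs is highest for the 6 other members.

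The 6 members that fell in rhd6 had the same order of COBL9::GFP libraries. IRE had 70.1, 27.8 and 38.7 FPKM in libraries A, B and C, RHS3 had 62.6, 19.2 and 28.5, and MRH1 had 97.0, 36.1 and 61.0. RHS10 had 162, 59.3 and 107.6 FPKM in the same libraries, RHS16 had 93.4, 28.9 and 55.3, and RHS6 had 7.78, 2.08 and 5.16. Library A was highest and B lowest for all 6, by 2.53 to 3.75 times. OXI1 had 158, 195 and 150.4 FPKM and was highest in library B, with a ratio of 1.30 between its extremes. The summed hair markers were 4047, 1219 and 2466 FPKM in libraries A, B and C, and the summed root cap markers 31.6, 478 and 251, in the opposite order. The order of the 6 members is not particular to hair markers. Summed non-hair markers were 66.3, 35.0 and 38.0 FPKM in libraries A, B and C, summed stele markers 98.1, 49.6 and 57.5, and summed cortex and endodermis markers 11.2, 1.55 and 7.75, with A highest and B lowest in each. The part of other cell types in these levels was not tested.

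**Figure D5:**
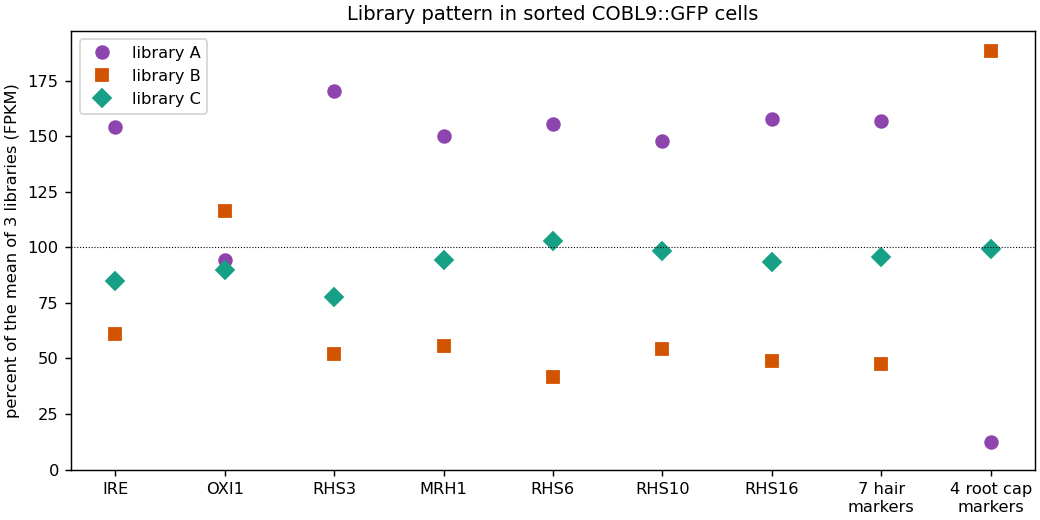
Level in each of 3 libraries of sorted COBL9::GFP cells as percent of their mean FPKM, on a linear axis, for the 7 members, the sum of 7 hair markers and the sum of 4 root cap markers. The 6 members other than OXI1 are highest in A and lowest in B, as the hair markers are (157%, 47.3% and 95.7% in libraries A, B and C), and the root cap markers run the other way (12.5%, 188% and 99.1%); the non-hair, stele and cortex and endodermis sums, not drawn, are also highest in A and lowest in B.

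In sieved hairs the order of means was RHS10, MRH1, RHS16, RHS3, OXI1, IRE and RHS6, and the ranges of all neighbours overlapped. RHS10 had 246, 49.1 and 62.1 FPKM in libraries 1, 2 and 3, MRH1 had 163, 73.6 and 70.2, and RHS16 had 172, 39.7 and 58.4. RHS3 had 114, 44.9 and 29.3 FPKM, IRE had 39.5, 12.1 and 7.81, and RHS6 had 32.0, 0.408 and 8.80. Library 1 was the highest for these 6, as it was for the summed hair markers, which were 5339, 1268 and 1498 FPKM. OXI1 had 22.9, 12.7 and 62.1 FPKM and was highest in library 3. Libraries 1, 2 and 3 list 1683, 1206 and 77 of the 14919 genes at 0, so the libraries stand apart.

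All 14919 genes of the sieved table, which lists genes at a mean of 3 FPKM or more, also stand in the COBL9 table, and among them the place of each member can be set side by side. OXI1 stood at the 64.9 percentile in sieved hairs and the 94.9 in sorted COBL9::GFP cells, and IRE at the 48.6 and the 80.8. The other 5 were nearer in both, with RHS10 at 91.0 and 91.9, MRH1 at 89.3 and 85.9, RHS16 at 87.6 and 84.8, RHS3 at 81.2 and 77.0, and RHS6 at 36.5 and 34.6. The tables differ in how cells were collected, in the library kit and in normalization, which cannot be told apart here, so no test was made between them.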

How the data were processed

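RNA of sorted epidermis, sorted hair cells and sieved hairs of Arabidopsis was sequenced in 12 of the 30 libraries of the series, and the other species were not used here. The table of rhd6 and wild type holds a signal that the authors deposited as normalized CPM (a read count scaled to library size, with a further factor per library). Divided by the smallest step of their library, 100% of the values came out whole (tolerance 0.01 read), which gave back the read counts. It also holds the authors' log2 fold changes, p-values and FDR, a likelihood ratio score and another column that marks an FDR below 0.01. The other tables hold FPKM by the authors, per the labels and the submitters' processing notes. The tools listed, per the submitters' processing notes and with no role given, are Cufflinks, edgeR, HTSeq 0.6.1, TopHat2 (2.0.9 and 2.0.3) and CASAVA 1.8.2. The sources used here do not say whether counting used strand or how reads shared by related genes were treated.

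The moderated two-sided test of limma (version 3.58.1, R version 4.3.3), with a trend in intensity, was applied to log2(normalized CPM + 1) for the 17575 genes that reached 1 in 3 of the 6 libraries, with Benjamini-Hochberg adjustment over all of them and a threshold of 0.05. The deposited values are normalized, so the count tests, DESeq2 1.42.0 and edgeR 4.0.16, were alternatives run on recovered reads, and they called 1348 and 664 genes where limma called 724. Counts of reads stand for molecules only up to amplification. FPKM levels were described without a test, since each table was normalized on its own. On simulated data with 200 changed genes of 17408, limma found 9.19% of those with a log2 change of 1, 88.8% at 2 and 99.3% at 3, and unchanged genes made up 8.56% of what it called. The changed genes were drawn from those with a mean of 5 or more, and each gene was drawn independently. These rates therefore do not carry over to lower genes such as RHS6 (mean 4.16) or to genes that shift together between libraries. Chi-square per degree of freedom between replicates was 13.6 to 251, above sampling noise, so none was counted as a repeat.

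Members and lists were chosen with earlier results of these data known. Named genes were all 7 members, genes of the relatives and partner lists past the test or otherwise the 4 with the highest level, and the 3 genes with the highest Pearson r to each member over the 13834 genes whose mean was at least 5. Gene names, exon counts and sequences came from the RefSeq annotation of TAIR10.1, in which 17555 tested genes were matched. The deposited tables name genes by TAIR10 and hold no coordinates, so all base positions are those of TAIR10.1 alone. Coding sequences were compared with blastn of BLAST 2.17.0. The longest run that RHS6 shares with another gene is not reported here. Figures and summaries used Python 3.11.15, numpy 2.4.6, pandas 2.3.3 and matplotlib 3.10.9.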

Additional observations from a re-analysis of the deposited data

How the results depend on the processing

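For the members, all 6 lowered genes kept a negative log2 fold change in every alternative that tested them. IRE stayed past the test in 14 of 14 alternatives. RHS6 passed in the 10 that tested it, and the filter removed it in the other 4 (each wild-type library left out, and a mean of at least 5), so its count says little of stability. The call held for MRH1 in 10 of 14, RHS3 in 9 of 14, RHS16 in 8 of 14 and RHS10 in 8 of 15, including 1 chosen after seeing the data, in which AT1G70450 was added to RHS10. The count of lowered members ran from 1 to 6 when 1 library was left out, which leaves fewer samples and fewer genes past the filter. The genes past the test numbered 431 when the mean had to be at least 5 and 1348 by DESeq2, and 222 to 784 without 1 library. Without 1 library, 0 to 3 AGC relatives, 1 PERK relative, 0 MRH1 relatives, 1 to 4 of the leucine-rich repeat subfamily I and 0 to 1 partners passed. PERK relatives past the test were 1 under the same filter on the mean and 1 by edgeR with either scaling, and those of subfamily I were 0 under that filter. Rescaling the values moved the median log2 fold change of all genes by -0.01 with median-of-ratios factors and by 0.04 without the authors' factors. Without 1 library, mean FPKM in sieved hairs ran from 4.60 to 20.4 for RHS6, 55.6 to 154 for RHS10, 9.94 to 25.8 for IRE and 49.0 to 115 for RHS16, the lowest in each case without library 1. No paired analysis was possible because the columns carry library numbers that the labels do not tie to the replicate numbers. For RHS6, with 10 rhd6 reads in all, depth limits the size of the fall. The cause of these dependences was not tested beyond the loss of samples and genes.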

Other observations

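Relatives of RHS6 that neighbour it on chromosome 1 had different FPKM values in the hair tables, in both directions. The tables were normalized separately, so FPKM does not compare directly between them. RHS6 itself had a mean of 13.7 FPKM in sieved hairs and 5.01 in sorted cells. Among the genes listed in both, it stood at the 36.5 and 34.6 percentile. How much of each difference below is one of scale was not tested. AT1G51830 had 99.6, 180.1 and 109.6 FPKM in libraries 1, 2 and 3 of sieved hairs, against 5.37, 0.846 and 3.02 in libraries A, B and C of sorted COBL9::GFP cells. AT1G51840 had 85.3, 155.2 and 106.9 FPKM in sieved hairs, against 6.10, 2.07 and 2.99 in sorted cells. Mean FPKM was also higher in sieved hairs than in sorted cells for AT1G51860 (106 against 16.9) and AT1G51790 (26.1 against 5.66). The same held for AT1G51890 (16.6 against 0.106) and, with a wide spread, AT1G51870 (7.80 ± 11.9 against 0.358 ± 0.344). Other neighbours, AT1G51800 and AT1G51850, had a lower mean FPKM in sieved hairs. AT1G51800 averaged 9.66 ± 9.78 FPKM in sieved hairs and 38.2 ± 14.6 in sorted COBL9::GFP cells, and AT1G51850 averaged 27.2 ± 13.4 and 50.5 ± 29.5 in the same order (SD, n = 3 each). In sorted WER::GFP epidermis AT1G51830 had 8.73, 46.3 and 8.02 normalized CPM in rhd6 libraries 10018, 10019 and 9519, against 9.09, 11.6 and 18.2 in wild-type libraries 8955, 9483 and 9489. Genes below a mean of 3 FPKM in sieved hairs are not listed there, so such neighbours could not be compared. The genes named here were chosen after their values were seen, the tables were normalized separately, and no test was made.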
